A study of Homo sapiens with 12 samples.

Results

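Described here are 8 long noncoding RNAs (NEAT1, MALAT1, MIR210HG, H19, PVT1, GAS5, SNHG1 and TUG1), chosen as a list of abundant or hypoxia-linked genes and found by matching Ensembl gene IDs to symbols. They are 8 of 57820 gene IDs in the count files, and each of the 8 was among the 16999 genes with enough reads to be tested. The cells were AsPC-1, a pancreatic adenocarcinoma line of human origin, in 4 groups with 3 libraries each, lettered A, B and C. Every well received an siRNA by lipid transfection, either a scrambled control (siControl) or one against ARNT (siARNT). After a split, cells of each well were either held at 21% O2 (normoxia) or moved to 1% O2 for 24 h (hypoxia), and RNA was taken at 48 h after transfection. The 4 groups are therefore normoxia siControl, hypoxia siControl, normoxia siARNT and hypoxia siARNT, all from a single line, and the labels describe triplicate wells and no separate cultures, so p-values measure the spread between these wells. The labels do not say whether a letter marks cells split from 1 well, so a fit with the transfected well as a block (siRNA by letter) is given beside a result where it changes the call.

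ARNT, also called HIF-1 beta, is the partner that the hypoxia-inducible HIF alpha proteins need in order to bind DNA, at elements built around ACGTG or GCGTG. At low oxygen the alpha subunits escape degradation and switch on genes of glycolysis, blood vessel growth and oxygen sensing, and microRNA miR-210 with its host transcript is among the best known noncoding targets. Long noncoding RNAs are transcripts without a known protein product. Some build nuclear bodies, some carry microRNAs or small nucleolar RNAs (snoRNAs) in their introns, and some are named for what they do near a neighbouring gene.

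Libraries held 38.53 to 84.34 M reads assigned to genes. ARNT itself lay between 60.7 and 72.2 counts per M reads (CPM) in the 6 siControl libraries and between 12.8 and 16.0 CPM in the 6 siARNT libraries, so the siRNA lowered its target without removing it. Of 12 HIF target genes listed to check the treatment, 12 rose in hypoxia with siControl and 6 with siARNT. By the same test 25.3% and 4.09% of all tested genes were called in either direction. EGLN3, an oxygen-sensing prolyl hydroxylase, went from 12.4 ± 0.256 to 121 ± 6.75 CPM with siControl and from 12.3 ± 0.818 to 20.1 ± 1.97 CPM with siARNT (SD, n = 3). ANKRD37 went from 0.686 ± 0.0517 to 5.47 ± 0.114 CPM with siControl and from 0.428 ± 0.0877 to 2.38 ± 0.372 CPM with siARNT. By the test of the difference used below, the hypoxia change was lower with siARNT for 11 of the 12 and not called for ANKRD37. Of all genes 4.69% were called by that test. In normoxia siARNT raised 2 of the 12 and lowered 2, where 20.2% of all genes were called. CA9 rose from 12.0 ± 0.739 to 22.4 ± 5.46 CPM, and P4HA1 fell from 125 ± 3.82 to 94.5 ± 7.35 CPM. Epithelial markers were present (8 of 9 at 10 CPM or more in each library), while 4 of 5 fibroblast, 4 of 5 leukocyte and 2 of 2 endothelial markers stayed under 1 CPM, with CD3E at 0. The fibroblast marker LUM was the exception, at 335 to 592 CPM, with its list's summed level at 567 to 593 CPM in hypoxia siControl and 335 to 469 CPM elsewhere. The part of this in the results below was not tested.

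The level of each RNA per length was compared first, as reads per kilobase of merged GENCODE 29 exons per M reads (RPKM), since a long RNA collects more reads. GAS5 had the highest level, with a median of 74.5 RPKM over the 12 libraries (54.7 to 98.0) that lay above every value of the other members. SNHG1 (median 41.7), TUG1 (31.0), MALAT1 (29.8) and NEAT1 (25.5) followed, and each of these overlapped its neighbour in that order. PVT1 was lower, at 2.31 to 3.12 RPKM. MIR210HG ranged from 0.171 to 5.0 RPKM, and its highest library was 29.2-fold above its lowest, against 1.31-fold to 3.5-fold for the others. H19 had the lowest level, at 0.068 to 0.238 RPKM, which overlapped the lower part of the range of MIR210HG. The gene models behind the deposited counts are of another release than those giving the lengths. With the longest transcript as length the median was 159 RPKM for GAS5 and 8.82 RPKM for PVT1. The order of the 8 medians stayed the same. For NEAT1 (22767 and 22743 bases) and MALAT1 (8829 and 8708 bases) both lengths are close. This check therefore cannot show how the places of NEAT1 and MALAT1 depend on the length used. Poly(A) selection can also lose RNAs without a usual tail, such as the long form of NEAT1 and processed MALAT1, so levels between members are less firm than changes within a member.

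**Figure D1:**
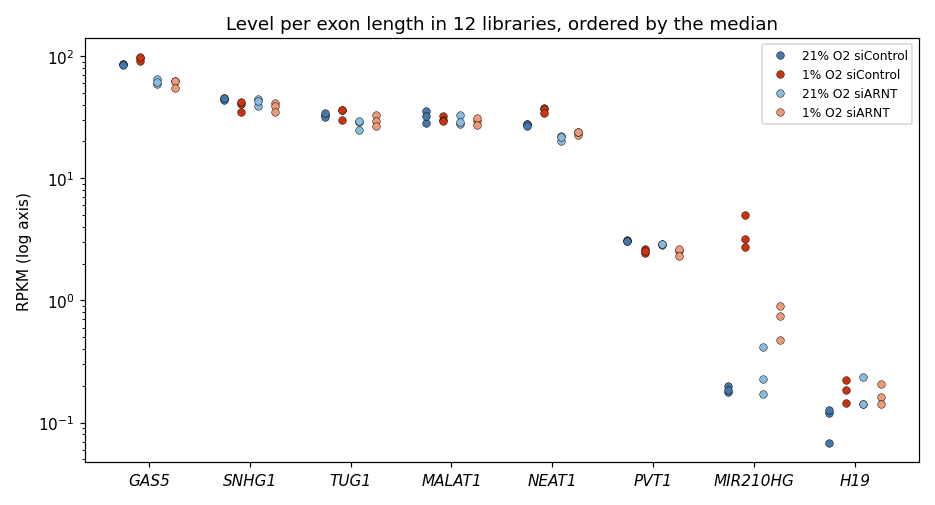
RPKM (log axis) of each long noncoding RNA in each of the 12 libraries, coloured by group and ordered by the median. GAS5 lies at 54.7 to 98.0 RPKM and H19 at 0.068 to 0.238 RPKM, and the MIR210HG points spread from 0.171 to 5.0 RPKM.

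Changes were tested with edgeR's quasi-likelihood test on counts, and each adjusted p given here is Benjamini-Hochberg adjusted over the 16999 genes, with a call at 0.05. Hypoxia with siControl gave calls for 3 of the 8 RNAs: NEAT1 and MIR210HG rose and PVT1 fell. Over all tested genes 25.3% were called in this comparison (10.4% up and 14.9% down), and among 2029 long noncoding RNAs 15.1%. With siARNT the same oxygen change gave a call for 0 of 8, against 4.09% of all genes (2.21% up and 1.89% down) and 2.27% of long noncoding RNAs, although 3 of the 8 had an unadjusted p under 0.05, DESeq2 and the fits with a replicate block or a well block called 1, and a fit with GC content as an offset called 2. Knockdown of ARNT lowered 2 of 8 in normoxia (GAS5 and NEAT1), where 20.2% of all genes (9.42% up and 10.8% down) and 11.1% of long noncoding RNAs were called. In hypoxia it lowered 3 of 8 (GAS5, NEAT1 and MIR210HG), where 29.1% of all genes (14.4% up and 14.7% down) and 19.2% of long noncoding RNAs were called. The hypoxia change differed between siARNT and siControl for 1 of 8, MIR210HG, against 4.69% of all genes (2.49% up and 2.19% down) and 2.17% of long noncoding RNAs. MALAT1, H19, SNHG1 and TUG1 were called in none of these 5 comparisons in this fit. The GC offset and other alternatives gave calls for SNHG1 and TUG1, which are listed with each.

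**Figure D2:**
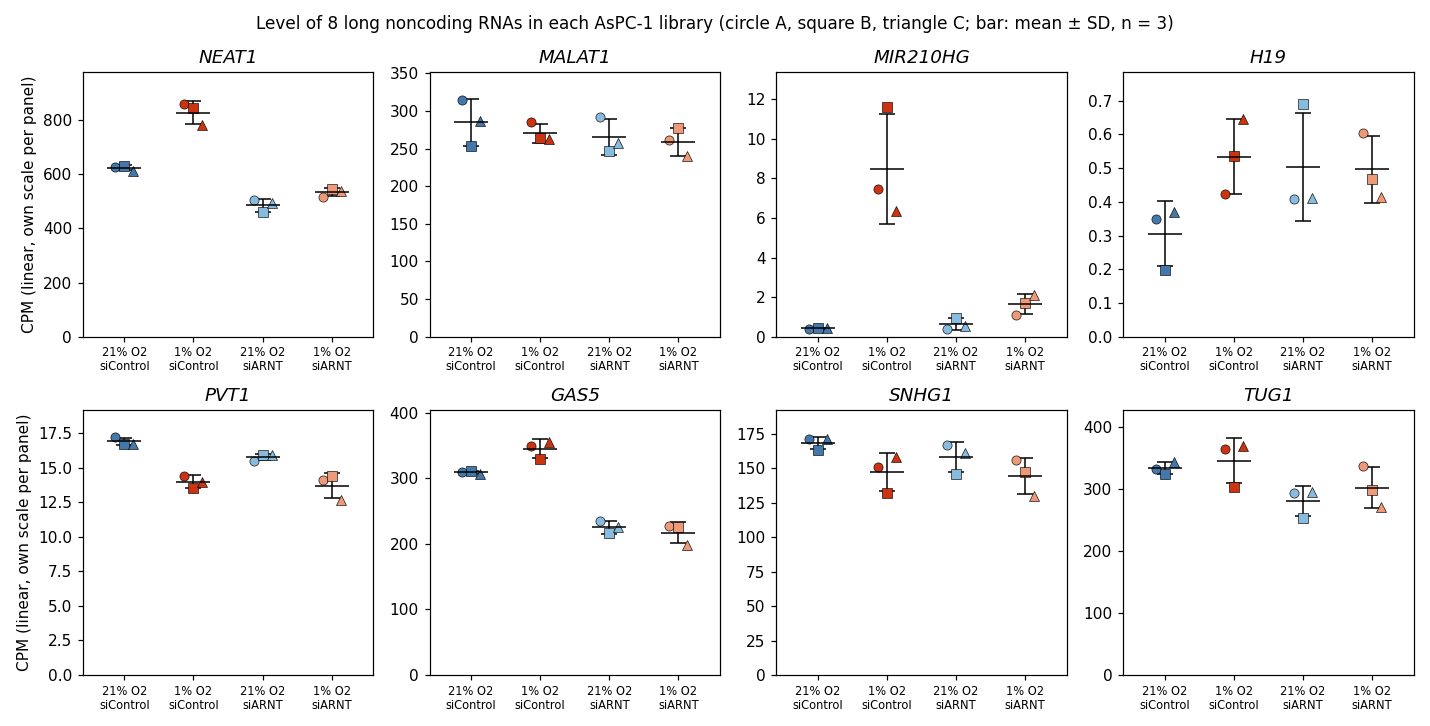
CPM of each RNA (linear axis from 0, own scale per panel) in each library, with marks for replicates A, B and C and bars for the mean ± SD of 3 libraries. The mean is highest in hypoxia siControl for NEAT1, MIR210HG, GAS5, TUG1 and H19, with a called hypoxia rise for NEAT1 and MIR210HG only. Both siARNT groups of GAS5 lie at 198 to 235 CPM, under the siControl groups at 306 to 356 CPM.

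Among the RNAs of nuclear bodies, NEAT1 (ENSG00000245532.4; GRCh38 chr11:65422774-65445540, plus strand), the scaffold of paraspeckles, was highest in hypoxia with siControl. In normoxia siControl it measured 628, 630 and 614 CPM in replicates A, B and C. Hypoxia siControl gave 859, 844 and 782 CPM. The 3 hypoxic libraries were above the 3 normoxic ones without overlap, a rise of 0.41 on the log2 scale (95% interval 0.29 to 0.53, adjusted p 0.000291). Under siARNT the levels were 504, 460 and 493 CPM in normoxia and 517, 546 and 540 CPM in hypoxia. These groups did not overlap either, but the difference of 0.14 (0.02 to 0.26) was not called (adjusted p 0.184). In bulk RNA, fewer cells of a kind and less RNA per cell cannot be told apart.

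ARNT knockdown lowered NEAT1 in normoxia (log2 fold change -0.36, SE 0.056, adjusted p 0.00122). In hypoxia it was lowered by a larger log2 fold change of -0.63 (SE 0.0561, adjusted p 7.67e-06). The normoxic call was lost when GC content was fitted as an offset (-0.17, adjusted p 0.156), whereas the hypoxic one was not (-0.61, adjusted p 9.82e-05). The hypoxia change of NEAT1 in siARNT cells, taken relative to siControl cells, was -0.27 (-0.44 to -0.10, adjusted p 0.0773), and with the GC offset -0.43 (adjusted p 0.0358). Over the 12 libraries the genes with the most similar log2 CPM were CDYL, a chromodomain protein gene (Pearson r 0.989), BDNF, a neurotrophin gene (0.984), and CYP4F3, a fatty acid hydroxylase gene (0.982). These correlations describe 12 libraries that share the 4 groups.

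Protein genes of the paraspeckle did not follow NEAT1 in a single direction. In hypoxia siControl 5 of 14 tested fell and 0 rose (median -0.13, against 0.02 over all genes). Of all genes 25.3% were called there in either direction. In siARNT in hypoxia 3 rose and 1 fell (median 0.02, as over all genes), where 29.1% of all genes were called. PSPC1, a core paraspeckle protein, fell in hypoxia siControl from 46.9 ± 0.701 to 34.4 ± 0.405 CPM (log2 fold change -0.45, adjusted p 9.67e-05) while NEAT1 rose. NUDT21, a subunit of the cleavage factor that sets the choice of poly(A) site, fell with siARNT in normoxia from 153 ± 9.78 to 96.1 ± 8.69 CPM (log2 fold change -0.67, adjusted p 0.000247) and by a log2 fold change of -0.42 in hypoxia (adjusted p 0.00238). In siARNT cells the list had 1 fall and 0 rises with hypoxia (4.09% of all genes called). In normoxia siARNT gave 1 rise and 3 falls (20.2% of all genes called). The difference of the hypoxia changes was called for 0 of 14 (4.69% of all genes).

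MALAT1 (ENSG00000251562.3; GRCh38 chr11:65497688-65506516, plus strand), an abundant RNA of nuclear speckles that lies next to NEAT1, showed no called change. Normoxia siControl held 315, 253 and 287 CPM and hypoxia siControl 285, 264 and 263 CPM, in overlapping ranges. With siARNT it was 292, 247 and 257 CPM in normoxia and 261, 277 and 240 CPM in hypoxia. The intervals limit the hypoxia change to between -0.27 and 0.12 with siControl and to between -0.23 and 0.16 with siARNT on the log2 scale, and they do not show that the levels were equal. Of 10 nuclear speckle protein genes tested, 1 fell and 0 rose in hypoxia under either siRNA, where 25.3% (siControl) and 4.09% (siARNT) of all genes were called in either direction. With siARNT 1 of the 10 rose and 0 fell at either oxygen level (20.2% of all genes called in normoxia and 29.1% in hypoxia), and 0 differed in their hypoxia change (4.69% of all genes). The neighbours FRMD8 and LTBP3 had hypoxia changes of 0.49 and 0.18 with siControl, neither of them called (adjusted p 0.179 and 0.693).

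**Figure D3:**
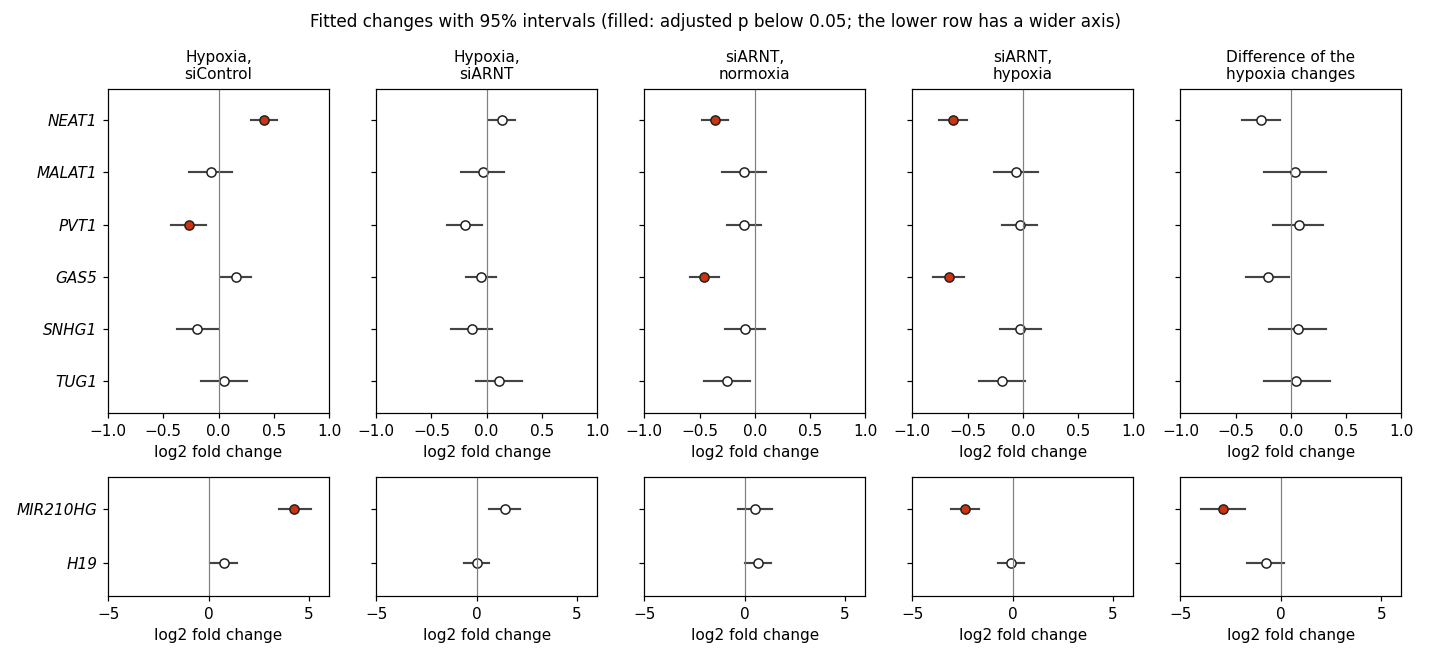
Log2 fold change with its 95% interval for each RNA in the 5 comparisons, filled where the adjusted p was under 0.05, with a wider axis for MIR210HG and H19. MIR210HG reaches 4.28 for hypoxia in siControl and 1.39 in siARNT, and the intervals of MALAT1 include 0 in each panel.

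MIR210HG (ENSG00000247095.2; GRCh38 chr11:565660-568457, minus strand) is the spliced host transcript of miR-210, whose hairpin lies in one of its introns. The mature arms, from RefSeq (GRCh38.p14), are printed because the host is the most responsive of the 8 RNAs, with the seed, bases 2 to 8, in capitals. Arm 3p lies at chr11:568112-568133 and arm 5p at chr11:568150-568171, both on the minus strand.
hsa-miR-210-3p: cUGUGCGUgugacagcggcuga
hsa-miR-210-5p: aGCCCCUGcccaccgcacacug
Poly(A) libraries do not hold mature microRNAs, and the gene row of MIR210 had 0 counts in each of the 12 libraries, so miR-210 was not measured and the values below are of its host.

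The promoter of MIR210HG in RefSeq (GRCh38.p14 chr11:568408-568707, minus strand, from 250 bases before the start to 50 after it) is shown for its HIF-type letters. Capitals mark ACGTG and GCGTG, searched on both strands.
MIR210HG: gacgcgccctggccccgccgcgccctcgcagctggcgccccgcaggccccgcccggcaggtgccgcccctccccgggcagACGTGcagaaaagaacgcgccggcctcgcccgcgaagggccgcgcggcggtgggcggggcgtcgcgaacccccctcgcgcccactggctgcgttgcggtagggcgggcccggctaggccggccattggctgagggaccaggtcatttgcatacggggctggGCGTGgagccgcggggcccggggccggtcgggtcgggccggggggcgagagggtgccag
It holds 1 ACGTG and 1 GCGTG, both on the strand of the gene. Across 35116 RefSeq promoter windows of this length 21.4% held ACGTG on either strand, 36.5% held GCGTG and 48.4% held at least 1 of them. Another window is printed for contrast, that of TUG1 (chr22:30969015-30969314, plus strand), a gene called in none of the 5 comparisons in the fit that gave the calls counted above.
TUG1: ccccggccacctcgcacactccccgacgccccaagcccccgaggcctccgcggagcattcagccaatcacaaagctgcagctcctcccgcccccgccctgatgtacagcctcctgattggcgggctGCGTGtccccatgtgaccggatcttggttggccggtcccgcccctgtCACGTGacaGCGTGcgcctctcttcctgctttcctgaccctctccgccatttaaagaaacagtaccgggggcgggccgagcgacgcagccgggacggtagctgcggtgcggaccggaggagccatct
This window has CACGTG, which reads as ACGTG on both strands, and 2 copies of GCGTG, so the letters alone were also present in a gene without a call in that fit. Of the 6 members with an entry, neither motif occurred in the windows of H19 and GAS5, SNHG1 had GCGTG on each strand, and MALAT1 had GCGTG in both of its windows. The window of GAS5 belongs to a RefSeq start upstream of the GENCODE 29 gene.

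MIR210HG rose in hypoxia by more than any other member, and the hypoxia difference was smaller after ARNT knockdown. It had 0.416, 0.459 and 0.427 CPM in normoxia siControl, which is 21 to 31 reads per library. Hypoxia siControl brought it to 7.44, 11.6 and 6.33 CPM (295 to 540 reads). All 3 hypoxic libraries were far above the normoxic ones, a 19.44-fold difference (log2 fold change 4.28, 95% interval 3.49 to 5.08, adjusted p 1.2e-05). With siARNT it was 0.398, 0.965 and 0.53 CPM in normoxia and 1.1, 1.73 and 2.09 CPM in hypoxia. These ranges did not overlap, yet the fitted difference of 1.39 (0.62 to 2.16) narrowly missed the threshold (adjusted p 0.0514). It passed the threshold with the transfected well as a block (1.4, adjusted p 0.0462) and with the letter as a block (1.42, adjusted p 0.0187). RLE and total count scaling gave 1.4 (adjusted p 0.0493) and 1.43 (adjusted p 0.0497). Leaving out normoxia siARNT replicate B, the highest normoxic library, gave 1.84 (adjusted p 0.0188), the GC offset gave 1.52 (adjusted p 0.000592) and DESeq2 1.39 (adjusted p 0.00189). It stayed uncalled with the 6 samples alone (1.41, adjusted p 0.177) and without the filter on low counts (1.38, adjusted p 0.121). Over the fits without 1 library it ran from 1.11 to 1.84, with adjusted p from 0.0188 to 0.143. Of 15 alternatives 8 called it and 7 did not.

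In hypoxia the siARNT libraries were 5.18-fold lower than the siControl ones (log2 fold change -2.37, SE 0.319, adjusted p 0.0002), and in normoxia the difference was 0.52 (-0.35 to 1.38, adjusted p 0.353). The difference of the hypoxia changes was -2.89 (-3.99 to -1.79, adjusted p 0.00955). The most similar genes over the 12 libraries were ENO2, a glycolytic enolase (r 0.987), HSD17B2, a steroid dehydrogenase (0.983), and PPFIA4, a liprin (0.98). Among 11 other microRNA host genes tested, 2 rose and 0 fell in hypoxia siControl (median 0.10), where 25.3% of all genes were called. In hypoxia siARNT 0 were called (median -0.28, against -0.04 over all genes), where 4.09% of all genes were called. MIR29B2CHG, host of miR-29b and miR-29c, rose with hypoxia in siControl from 4.59 ± 0.24 to 7.11 ± 0.707 CPM (log2 fold change 0.63, adjusted p 0.00123). DLEU2, host of miR-15a and miR-16, rose with siARNT in normoxia from 4.42 ± 0.365 to 7.57 ± 1.34 CPM (log2 fold change 0.77, adjusted p 0.00263). With siARNT in normoxia 1 host rose and 0 fell (20.2% of all genes called), and in hypoxia 2 rose and 2 fell (29.1%). The hypoxia change differed for 1 host (4.69% of all genes). The flanking genes PHRF1 and RASSF7 had hypoxia changes of 0.28 (adjusted p 0.448) and 1.62 (adjusted p 0.0478) with siControl, and the call of RASSF7 was lost on leaving out any of 5 of the 6 libraries compared.

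Host genes of snoRNAs carry these small guides of ribosomal RNA modification in their introns, and many of their spliced RNAs turn over through nonsense-mediated decay. GAS5 (ENSG00000234741.3; GRCh38 chr1:173863900-173868882, minus strand) was lower with siARNT at both oxygen levels. With siControl it measured 310, 311 and 306 CPM in normoxia and 349, 329 and 356 CPM in hypoxia. With siARNT it measured 235, 216 and 225 CPM in normoxia and 227, 225 and 198 CPM in hypoxia. Every siARNT library was below every siControl library. The log2 fold change of siARNT was -0.46 in normoxia (95% interval -0.59 to -0.32, adjusted p 0.000573) and -0.67 in hypoxia (-0.81 to -0.53, adjusted p 1.23e-05). With the GC offset these were -0.25 (adjusted p 0.00466) and -0.63 (adjusted p 3.33e-07).

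Hypoxia left GAS5 without a call under either siRNA in the fit that gave the calls counted above. The difference was 0.16 with siControl (0.02 to 0.29, adjusted p 0.0891), in ranges that did not overlap, and -0.05 with siARNT (-0.19 to 0.08, adjusted p 0.648). The siControl value was called with the 6 samples alone (0.15, adjusted p 0.0361). The GC offset brought it to 0.24 (adjusted p 0.00377) and the difference of the hypoxia changes from -0.21 (adjusted p 0.202) to -0.38 (adjusted p 0.00603). The siARNT value was called with the GC offset and the replicate block together (-0.14, adjusted p 0.0379). On the opposite strand GAS5 shares exon bases with GAS5-AS1 and ZBTB37, and the strand setting of the counter is not given in the sources used here. GAS5-AS1 held at most 55 reads in a library. ZBTB37 averaged 41.7 ± 0.507 CPM in normoxia siControl and 35.9 ± 4.37 CPM in normoxia siARNT, a difference that was not called (adjusted p 0.105). The genes most similar to GAS5 were CCNDBP1 (r 0.992), SERPINB5 (0.99) and PDK4 (0.99), which encode a cyclin D-binding protein, the serpin maspin and a pyruvate dehydrogenase kinase.

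SNHG1 (ENSG00000255717.2; GRCh38 chr11:62851988-62855914, minus strand), another snoRNA host, was called in none of the 5 comparisons in the fit that gave the calls counted above. Normoxia siControl had 171, 163 and 171 CPM and hypoxia siControl 151, 132 and 158 CPM, without overlap (log2 fold change -0.20, 95% interval -0.38 to -0.01, adjusted p 0.115). With siARNT the values were 167, 146 and 161 CPM in normoxia and 156, 147 and 130 CPM in hypoxia, in overlapping ranges (log2 fold change -0.13, adjusted p 0.4). The siControl difference passed the threshold with the 6 samples alone (-0.21, adjusted p 0.0382), with total count scaling (-0.22, adjusted p 0.0387) and with the GC offset (-0.11, adjusted p 0.0417). With the GC offset the siARNT difference also passed it, at a larger -0.22 (adjusted p 0.00264), and the difference of the hypoxia changes was -0.10 (adjusted p 0.271). The knockdown values were -0.09 in normoxia and -0.03 in hypoxia, against -0.46 and -0.67 for GAS5, a contrast between the 2 genes that was not tested.

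Across 17 other snoRNA hosts and related noncoding genes, siARNT in hypoxia gave 6 falls and 0 rises (median -0.14, against 0.02 over all genes). Of all genes 29.1% were called there. In normoxia siARNT gave 3 falls and 0 rises (median -0.02), where 20.2% of all genes were called. Hypoxia gave 3 rises and 3 falls with siControl (25.3% of all genes called), and 0 rises and 1 fall with siARNT (4.09%). EPB41L4A-AS1 fell with siARNT from 33.7 ± 0.302 to 24.5 ± 1.55 CPM in normoxia (log2 fold change -0.46, adjusted p 0.000537) and from 37.3 ± 0.362 to 21.1 ± 0.857 CPM in hypoxia (-0.82, adjusted p 2.6e-06). ZFAS1 rose in hypoxia siControl from 169 ± 4.42 to 199 ± 3.19 CPM (log2 fold change 0.23, adjusted p 0.00478), and this call was lost with the GC offset (0.18, adjusted p 0.166). SNHG7 fell with siARNT in hypoxia from 23.1 ± 2.16 to 15.0 ± 2.3 CPM (-0.62, adjusted p 0.00768). The difference of the hypoxia changes was called for 2 of 17 (4.69% of all genes), ZFAS1 and EPB41L4A-AS1 (adjusted p 0.049 and 0.0422). These calls were lost on leaving out any of 10 and 11 of the 12 libraries and with the well block. Of 12 genes of nonsense-mediated decay and of the stress response, 1 rose and 1 fell in hypoxia siControl (25.3% of all genes called) and 0 rose and 1 fell in hypoxia siARNT (4.09%). With siARNT 0 rose and 1 fell both in normoxia (20.2%) and in hypoxia (29.1%), and 0 differed in their hypoxia change (4.69%). ASNS, asparagine synthetase, fell in hypoxia siControl from 184 ± 3.49 to 105 ± 6.74 CPM (log2 fold change -0.80, adjusted p 2.65e-05).

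PVT1 (ENSG00000249859.3; GRCh38 chr8:127794533-128101253, plus strand) is a long, many-exon transcript next to MYC and is often amplified with it in tumours. In normoxia siControl it measured 17.2, 16.7 and 16.7 CPM, and in hypoxia siControl 14.4, 13.5 and 14.0 CPM. The hypoxic libraries were lower without overlap, a fall of 0.27 on the log2 scale (95% interval for the change -0.43 to -0.11, adjusted p 0.0173). This call was lost without normoxia siControl replicate A (adjusted p 0.0805), normoxia siControl replicate C (0.0691) or hypoxia siControl replicate B (0.0691), with the transfected well as a block (-0.27, adjusted p 0.0578), and without the filter on low counts (0.198). With siARNT the values were 15.5, 15.9 and 15.9 CPM in normoxia and 14.1, 14.4 and 12.7 CPM in hypoxia, again without overlap, and the difference of -0.20 (-0.36 to -0.04) was not called (adjusted p 0.141). The difference of the hypoxia changes was 0.07 (-0.16 to 0.29, adjusted p 0.724). MYC, named here after its values were seen, had a hypoxia change of -0.28 with siControl (adjusted p 0.0225) and -0.21 with siARNT (adjusted p 0.169). RAN, a nuclear transport GTPase (r 0.965), MMP7, a matrix metalloproteinase (0.964), and CDKL1, a protein kinase (0.961), were most similar to PVT1.

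H19 (ENSG00000130600.11; GRCh38 chr11:1995176-2001470, minus strand), an imprinted fetal RNA expressed from the maternal allele, was close to the detection limit. The libraries held 9 to 40 reads each. Normoxia siControl had 0.349, 0.197 and 0.371 CPM, and hypoxia siControl 0.422, 0.537 and 0.644 CPM, just above it without overlap (log2 fold change 0.75, 95% interval 0.09 to 1.42, adjusted p 0.0944). With siARNT it had 0.409, 0.689 and 0.412 CPM in normoxia and 0.605, 0.468 and 0.414 CPM in hypoxia, a difference of 0.00 with an interval of -0.62 to 0.62. The siControl difference had an unadjusted p of 0.0298 in edgeR's quasi-likelihood test and missed the threshold after adjustment over all genes. With the GC offset it was 0.49 (adjusted p 0.294). In normoxia H19 differed by 0.67 between siARNT and siControl, without overlap, and was not called either (95% interval 0.02 to 1.33, adjusted p 0.12). Its imprinted neighbour IGF2 held 0 to 7 reads per library and was not tested. MRPL23, another neighbour of H19, rose with siARNT in normoxia (log2 fold change 1.05, adjusted p 0.0493), a call lost on leaving out any of 4 of the 6 libraries.

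TUG1 (ENSG00000253352.4; GRCh38 chr22:30969245-30979395, plus strand), an RNA known for its part in retinal development and in chromatin regulation, was called in none of the comparisons in the fit that gave the calls counted above. It measured 333, 325 and 344 CPM in normoxia siControl and 365, 304 and 369 CPM in hypoxia siControl, in overlapping ranges (log2 fold change 0.05, 95% interval -0.16 to 0.26). With the GC offset this change was called (0.13, adjusted p 0.0172). With siARNT it was 294, 253 and 296 CPM in normoxia and 337, 299 and 271 CPM in hypoxia. The 3 normoxic siARNT libraries were below the 3 normoxic siControl ones, and the difference of -0.25 (-0.46 to -0.04) was not called (adjusted p 0.0832). It passed the threshold with the replicate block (-0.25, adjusted p 0.0401) and was -0.05 (adjusted p 0.377) with the GC offset. In hypoxia the knockdown difference of -0.19 (adjusted p 0.156) passed the threshold without hypoxia siControl replicate B (-0.30, adjusted p 0.0377) and with the GC offset (-0.16, adjusted p 0.00401). Its neighbour MORC2 differed by 0.06 with siARNT in normoxia (adjusted p 0.518), while OSBP2 rose from 25.8 ± 2.63 to 47.1 ± 12.7 CPM (log2 fold change 0.87, adjusted p 0.00879).

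Taking the ranges of the libraries alone, the groups did not overlap for 6 of the 8 RNAs in hypoxia siControl against its normoxic control, against 46.8% of all tested genes. The numbers were 3 of 8 (22.2% of all genes) for hypoxia with siARNT, 5 of 8 (46.5%) for siARNT in normoxia and 3 of 8 (40.3%) for siARNT in hypoxia. Of the 13 protein-coding neighbours tested, 1 rose and 3 fell in hypoxia siControl (25.3% of all genes called). In hypoxia siARNT 0 were called (4.09% of all genes). With siARNT 3 rose and 1 fell in normoxia (20.2% of all genes called), and 2 rose and 0 fell in hypoxia (29.1%).

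Other long noncoding RNAs were set beside the 8, from a list of 12 tested. In hypoxia siControl 5 rose and 0 fell (median 0.14, 25.3% of all genes called). In hypoxia siARNT 0 were called (median 0.01, 4.09% of all genes called). Knockdown in hypoxia gave 1 rise and 5 falls (median -0.21, 29.1% of all genes called). UCA1 went from 1.09 ± 0.268 to 4.7 ± 1.08 CPM in hypoxia siControl (log2 fold change 2.09, adjusted p 2.49e-05) and was 1.08 ± 0.0299 CPM in hypoxia siARNT. LUCAT1 went from 3.24 ± 0.103 to 10.8 ± 0.577 CPM (log2 fold change 1.74, adjusted p 1.2e-05) and was 2.3 ± 0.487 CPM in hypoxia siARNT. LINC00511 rose in hypoxia siControl from 19.4 ± 1.38 to 33.2 ± 1.22 CPM (log2 fold change 0.77, adjusted p 2e-05). With siARNT it was 11.6 ± 0.0172 CPM in normoxia and 10.1 ± 0.337 CPM in hypoxia. The knockdown log2 fold changes were -0.74 in normoxia (adjusted p 5.32e-05) and -1.71 in hypoxia (adjusted p 3e-08). The hypoxia change differed between the siRNAs for 3 of 12 (4.69% of all genes). The values were -2.06 for UCA1 (adjusted p 0.00286), -1.46 for LUCAT1 (adjusted p 0.00359) and -0.97 for LINC00511 (adjusted p 0.000334). They stand beside -2.89 for MIR210HG and an uncalled -0.27 for NEAT1. With siARNT in normoxia 0 rose and 4 fell (20.2% of all genes called).

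**Figure D4:**
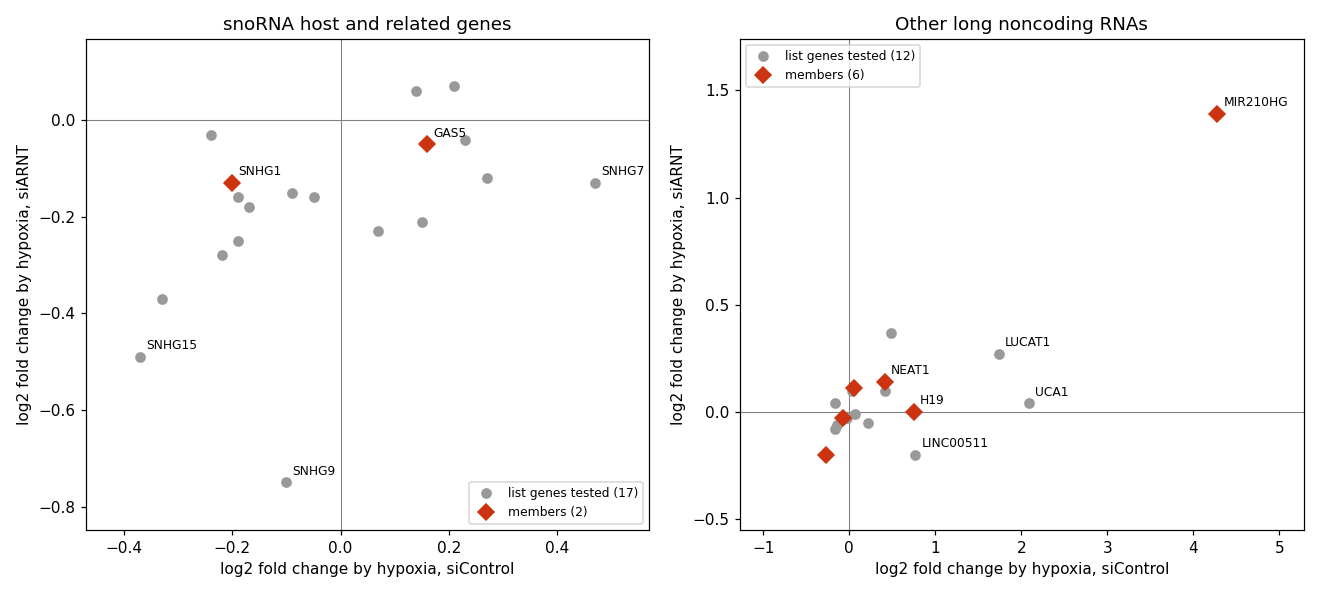
Log2 fold change by hypoxia with siARNT (vertical) against that with siControl (horizontal) for snoRNA host genes with GAS5 and SNHG1 (left) and for other long noncoding RNAs with the remaining 6 (right), on separate scales. MIR210HG lies at 4.28 and 1.39, UCA1 at 2.09 and 0.04, and NEAT1 at 0.41 and 0.14.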

How the data were processed

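Poly(A) RNA of 12 AsPC-1 samples was sequenced single-end from stranded libraries on 3 HiSeq lanes, per the labels' protocols. The authors deposited counts, whole numbers of reads per gene ID and library, in files whose names and summary lines are those of HTSeq. STAR 2.4.2a, Trimmomatic and the build GRCh38.p10 are named in the submitters' processing notes, and the annotation release and the counter's strand setting are not given in the sources used here. Of 57820 gene IDs, 29842 carry the version they have in GENCODE 29, so the deposited counts rest on another release than the GRCh38 coordinates, lengths and GC contents printed here, which are from GENCODE 29. Summary lines without a gene held 22.71 to 25.2% of reads and were left out. Symbols were matched for 51996 IDs, which hold 99.35% of the counts. The deposited splicing files give the inclusion share as a fraction, per the file headers, for 6 kinds of event. None of their 56092 events (98.7% in protein-coding genes) carried the ID of a member, so the planned splicing tests gave no value.

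edgeR 4.0.16 (R 4.3.3, limma 3.58.1) was used on the counts after filterByExpr and TMM scaling. A robust quasi-likelihood model took the 4 group means over the 12 samples together, and p-values were adjusted by Benjamini-Hochberg for each of 5 comparisons separately. The tests were checked on simulated data with a single spread for all genes and changes only in well-covered genes of hypoxia siControl. That check did not cover changes at low counts, a GC effect or split wells. Log2 fold changes are from this fit, SE is the log2 fold change over the root of F, and intervals are 95% t intervals. CPM is TMM-scaled. The difference of the hypoxia changes is siARNT minus siControl. Alternatives were RLE and total count scaling, DESeq2 1.42.0, no filter, only the 6 samples compared, a block for the replicate letter or for the transfected well, an offset from a spline with 4 degrees of freedom on GC content (known for 97.3% of tested genes), and leaving out each library. Libraries of a group differed by more than counting noise in each of 12 pairs (chi-square over degrees of freedom 4.3 to 89.11).

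The members and the 8 gene lists were chosen with earlier results of these data known. Named from each list are up to 2 called rises and 2 called falls with the largest change per comparison, of which those described in the text are a part. Of 67 such calls, 32 were lost on leaving out 1 library, and 35 were kept in each such fit. Likeness is the Pearson correlation of log2 CPM (prior count 2) among tested genes of at least 1 CPM on average. Values of some neighbouring genes are not reported here.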

Additional observations from a re-analysis of the deposited data

Results flagged for a closer look

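MIR210HG was singled out because its hypoxia change differed between siARNT and siControl by the test of that difference, with a log2 value of -2.89 (edgeR's quasi-likelihood interaction test, adjusted p 0.00955). The change was 4.28 with siControl and 1.39 with siARNT. Over the 20 alternatives the value ran from -3.17 to -2.43 and its adjusted p from 1.51e-07 to 0.0355. No group had the 4 samples needed to look for a single library far from the others.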

How the results depend on the processing

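Of 624 log2 fold changes of members under alternatives, 553 kept direction and side of the threshold, 28 became called, 7 lost their call and 36, none of them called, changed sign. Members called for hypoxia in siControl moved from 3 to 5 with the 6 samples alone and to 6 with the GC offset, with or without the replicate block, were 4 with total count scaling and 2 with the well block or without the filter, and were 2 to 3 on leaving out 1 library. For hypoxia in siARNT the 0 became 1 with RLE, total count scaling, DESeq2, the replicate block or the well block, 2 with the GC offset and 3 with both, and 0 to 1 without 1 library. For siARNT in normoxia the 2 became 1 with the GC offset, with or without the block. Members that differed in their hypoxia change went from 1 to 3 with the GC offset, with or without the block. The cause was not tested.

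Whether letters pair the samples was not settled. The labels describe split wells without tying letters to them. Deviations of same-letter libraries correlated between 0.07 and 0.30 for the oxygen levels of siControl, -0.43 and 0.52 for those of siARNT, 0.08 and 0.41 for the siRNAs in normoxia and -0.33 and 0.18 in hypoxia, so in no comparison were all 3 pairs over 0.1. Between normoxia siARNT and hypoxia siControl they were 0.18 to 0.53, and 7 of 12 libraries correlated best with their own letter. The highest correlation, 0.63, was between different letters, normoxia siARNT replicate B and hypoxia siARNT replicate C. These values do not settle the pairing. The well block lost the call of PVT1 for hypoxia in siControl (-0.27, adjusted p 0.0578) and added MIR210HG for hypoxia in siARNT (1.4, adjusted p 0.0462). The replicate block alone gave 3, 1, 3, 3 and 1 members called in the order of the report, with TUG1 added for siARNT in normoxia (-0.25, adjusted p 0.0401).

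Signs changed with the GC offset for MALAT1 (hypoxia in siControl 0.01, siARNT in normoxia 0.12, or 0.11 with the block, difference of the hypoxia changes -0.13, or -0.12), SNHG1 (siARNT in normoxia 0.11, siARNT in hypoxia 0.00, difference -0.10, or -0.11), TUG1 (difference -0.11) and ARNT (difference -0.08). Total count scaling gave 0.02, 0.05 and 0.05 for MALAT1, PVT1 and SNHG1 with siARNT in hypoxia, and leaving out the filter gave -0.01 for H19 in hypoxia siARNT. Without 1 library, hypoxia in siControl ran from -0.15 to 0.01 for MALAT1, and hypoxia in siARNT from -0.09 to 0.04 for MALAT1, -0.15 to 0.29 for H19 and -0.08 to 0.00 for GAS5. For siARNT in hypoxia the ranges were -0.25 to 0.07 for H19, -0.07 to 0.03 for PVT1 and -0.12 to 0.04 for SNHG1. Differences of the hypoxia changes ran from -0.03 to 0.12 for MALAT1, -0.01 to 0.13 for SNHG1 and -0.03 to 0.12 for TUG1.

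Over all genes, calls for hypoxia in siARNT numbered 696, against 22 with the 6 samples alone, 136 with the well block, 3043 with the GC offset, 3413 with GC offset and block, and 129 to 454 without 1 library. Calls for the difference numbered 797, against 1495 with total count scaling, 373 with the well block, 2284 with the GC offset, 2641 with both, and 272 (without normoxia siControl replicate C) to 1188 (without hypoxia siARNT replicate C). Hypoxia in siControl gave 4299, against 6545 (GC offset), 6881 (both) and 2873 to 3805 without 1 library. For siARNT in normoxia the count was 3431, against 5549 (both) and 1571 (without normoxia siControl replicate C) to 3437, and in hypoxia 4948, against 7568 (both). MIR210HG and H19 held 9 to 86 reads per library outside hypoxia siControl, and the part of depth in their intervals was not tested. Splicing alternatives had no value to test.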
